A study of Mus musculus with 31 samples.

Results

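The choroid plexus epithelium was read through 10 marker genes, Ttr, Folr1, Kl, Clic6, Otx2, Enpp2, Aqp1, Slc4a5, Prlr and Cldn2, taken by gene symbol from a table of 48795 genes measured by total RNA sequencing of mouse brain. All 10 passed the filter on low counts, which kept 19529 genes. The study asked how brain transcription differs after exposure during development to deltamethrin, an insecticide of the pyrethroid class that keeps neuronal sodium channels open. The labels give 13 control libraries and 18 deltamethrin libraries, each made from an aliquot of homogenized brain tissue that was not the whole brain, and state neither strain, age, sex, litter, dose nor batch for either group. Nothing in the labels says that the libraries are separate animals, so the p-values measure the spread between these libraries.

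The choroid plexus is a sheet of epithelium that hangs into the brain ventricles, secretes cerebrospinal fluid and forms the barrier between blood and that fluid. Its cells move ions and water, carry vitamins and hormones across, and release binding proteins into the fluid. Several of its products are scarcely made elsewhere in the brain, and so its share of a brain sample can be followed through them. In bulk tissue, fewer epithelial cells and less RNA per cell cannot be told apart.

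The markers fall into roles. Ttr encodes transthyretin, the carrier of thyroid hormone and retinol-binding protein. Folr1 (ENSMUSG00000001827, chromosome 7, 101858331 to 101870788, minus strand) encodes the folate receptor alpha, which carries folate into the fluid. Kl (ENSMUSG00000058488, chromosome 5, 150952607 to 150993817, plus strand) encodes klotho, a co-receptor for fibroblast growth factor 23, and Prlr (ENSMUSG00000005268, chromosome 15, 10177238 to 10349180, plus strand) the prolactin receptor. Aqp1 (ENSMUSG00000004655, chromosome 6, 55336432 to 55348555, plus strand) encodes a water channel and Slc4a5 (ENSMUSG00000068323, chromosome 6, 83219828 to 83304945, plus strand) a sodium bicarbonate cotransporter. Clic6 (ENSMUSG00000022949, chromosome 16, 92485736 to 92541243, plus strand) belongs to the chloride intracellular channel family, and Cldn2 (ENSMUSG00000047230, chromosome X, 139800828 to 139811386, plus strand) encodes a tight junction protein that forms cation pores. Enpp2 (ENSMUSG00000022425, chromosome 15, 54838901 to 54952892, minus strand) encodes autotaxin, a secreted enzyme that makes lysophosphatidic acid and that oligodendrocytes also express. Otx2 (ENSMUSG00000021848, chromosome 14, 48657677 to 48673819, minus strand) encodes a homeodomain transcription factor needed for the tissue to form. All coordinates are those of GENCODE M21 on GRCm38, and all 10 genes are protein coding. Exons of Otx2, Enpp2 and Prlr overlap other annotated genes by 322, 345 and 203 bases, and the use of strand in counting is not given in the sources used here.

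Upstream sequence is shown for Kl, Slc4a5 and Cldn2, which varied together closely, and for Otx2 itself, from the RefSeq promoter table (GRCm38.p6). Folr1, Clic6 and Enpp2 have no entry in that table. Windows of Ttr were not read, so the motif counts below leave Ttr out although it varied closely with Folr1. For 6 of the 10 markers 11 windows of 250 bases before a transcript start were read. Each is written 5′ to 3′ on the strand of the gene, and capitals mark TAATCC (the core bound by Otx-type homeodomains), TATAAA (the TATA box) or GGGCGG (the GC box), searched on both strands.
Kl, chr5:150952357-150952606, plus strand: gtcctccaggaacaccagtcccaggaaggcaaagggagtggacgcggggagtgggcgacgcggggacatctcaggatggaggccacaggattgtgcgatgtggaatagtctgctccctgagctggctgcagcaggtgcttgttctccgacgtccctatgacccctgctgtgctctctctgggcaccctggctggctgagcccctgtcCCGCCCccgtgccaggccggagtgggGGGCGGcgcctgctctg
Slc4a5, chr6:83237125-83237374, plus strand: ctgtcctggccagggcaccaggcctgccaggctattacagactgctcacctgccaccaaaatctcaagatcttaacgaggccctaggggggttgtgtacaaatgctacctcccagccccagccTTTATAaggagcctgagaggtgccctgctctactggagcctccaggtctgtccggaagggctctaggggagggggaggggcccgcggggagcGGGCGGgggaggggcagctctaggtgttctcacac
Cldn2, chrX:139800558-139800807, plus strand: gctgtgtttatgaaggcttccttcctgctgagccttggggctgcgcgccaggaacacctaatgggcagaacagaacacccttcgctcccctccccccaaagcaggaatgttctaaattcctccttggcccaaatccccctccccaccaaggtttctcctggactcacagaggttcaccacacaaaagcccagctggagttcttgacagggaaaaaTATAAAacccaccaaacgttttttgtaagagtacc
Otx2, chr14:48665110-48665359, minus strand: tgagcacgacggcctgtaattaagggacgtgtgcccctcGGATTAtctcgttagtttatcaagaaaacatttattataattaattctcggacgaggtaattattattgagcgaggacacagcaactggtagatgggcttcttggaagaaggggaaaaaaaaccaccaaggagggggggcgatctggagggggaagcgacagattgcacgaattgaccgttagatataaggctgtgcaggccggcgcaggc
The Slc4a5 and Otx2 windows precede transcript starts that lie inside the GENCODE gene bounds given above. TAATCC or its reverse complement was present in 1 of the 11 windows, that of Otx2 printed here, against 6.25% of all 32851 windows in the table. TATAAA was present in 3 of the 11 windows (1 each of Cldn2, Otx2 and Slc4a5) against 12.4% of all windows, and GGGCGG in 3 of the 11 (1 each of Aqp1, Kl and Slc4a5) against 32.7%. Windows of 1 gene can overlap, and Otx2 and Prlr have several. The windows of Kl and Slc4a5, whose log2 levels had a Pearson r of 0.900 over the libraries, both hold GGGCGG. The Slc4a5 window also holds TATAAA on the opposite strand. Cldn2, with r = 0.893 to Slc4a5 and 0.882 to Kl, holds TATAAA without GGGCGG. Prlr, with r = 0.893 to Kl, holds none of the motifs in its windows. A relation of motifs to r was not tested. A match is a description of the letters in these windows.

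Total counts ran from 17570311 to 35716869 in control and from 24563143 to 38680621 in deltamethrin. No 2 libraries agreed within sampling noise: over 465 pairs the chi-square divided by its degrees of freedom was at least 5.66. Control replicate 2 had 40.2% of its counts in mitochondrial ribosomal RNA (mt-Rnr1 plus mt-Rnr2) and control replicate 7 had 27.4%, the highest shares of the 31. Deltamethrin replicate 8 followed with 26.3%, and the group medians were 12.9% in control and 14.8% in deltamethrin. After TMM scaling the 2 control libraries also held the highest levels of Ttr and Folr1, whereas deltamethrin replicate 8 was the lowest library for 7 of the 10 markers. The TMM factor, by which a library total is multiplied, was 0.613 in control replicate 2, the lowest of all libraries. It was 0.898 in control replicate 7 and 0.843 in deltamethrin replicate 8. A low factor raises every level of its library, so the rank of control replicate 2 depends on the scaling. Results that rest on these libraries are given with and without them.

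Levels of the markers differed widely between genes. CPM values (counts relative to the library total after TMM scaling) were divided by annotated exon length so that genes could be compared. Ttr came first, with 421 ± 206 CPM per kilobase (SD, n = 31), and Enpp2 second, with 37.9 ± 10.4. Both stood above the next gene in 31 of 31 libraries. Clic6 (2.37 ± 0.736 CPM per kilobase), Folr1 (1.80 ± 0.852), Kl (1.41 ± 0.567) and Aqp1 (1.28 ± 0.526) formed a middle group whose spreads overlapped, and Kl exceeded Aqp1 in 21 of 31 libraries. Otx2 (0.633 ± 0.141), Cldn2 (0.616 ± 0.270), Slc4a5 (0.508 ± 0.232) and Prlr (0.388 ± 0.192) were lowest. Otx2 and Cldn2 did not differ beyond their spread, with Otx2 higher in 20 of 31 libraries. Exon length was the union of all annotated exons, so genes with many alternative exons, such as Prlr (15339 bases against 1186 for Ttr), get a lower level per kilobase.

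No marker separated the groups once all genes were taken into account. By edgeR's quasi-likelihood test 0 of the 10 had an adjusted p-value under 0.05, and the smallest was 0.813. The same held for all genes, of which 0 passed (0%) by edgeR and 853 had an unadjusted p-value under 0.05. DESeq2 and limma voom also gave 0 genes past adjustment. Before adjustment 2 markers, Ttr and Folr1, had a p-value under 0.05, both lower in deltamethrin. Of all genes tested, 2.37% were lower, 2% higher and 4.37% either at that level. The log2 fold change of deltamethrin over control was negative for 9 of the 10 markers, with a median of -0.18, while 49.5% of all genes were negative and their median was 0.0014. The 9 negative values are not 9 separate observations, because the markers varied together between libraries as described further on.

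Ttr (ENSMUSG00000061808, chromosome 18, 20665280 to 20674321, plus strand), the most abundant marker, had 246 CPM in the lowest control library, a median of 491 and 1209 in the highest. In deltamethrin the lowest, median and highest values were 229, 425 and 687 CPM. The groups overlapped over most of their range, 3 control libraries lay above every deltamethrin library, and 12 of 18 deltamethrin libraries lay below the control median. The means were 592 ± 308 CPM (SD, n = 13) and 431 ± 162 CPM (SD, n = 18), a log2 fold change of -0.46 ± 0.21 (SE) with an unadjusted p of 0.0360 and an adjusted p of 0.813 by edgeR. A two-sided permutation test of the mean log2 CPM gave an unadjusted p of 0.0854. Without control replicates 2 and 7 the log2 fold change was -0.15, with an unadjusted p of 0.423. With all libraries but no scaling factors edgeR gave -0.33 (unadjusted p = 0.0896), and limma voom gave -0.44 (unadjusted p = 0.0439).

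Folr1, far less abundant than Ttr, had 54 to 203 counts per library. Its lowest, median and highest control values were 2.19, 4.29 and 9.57 CPM, against 1.91, 3.32 and 5.95 CPM in deltamethrin. Again the upper part of the control range was empty in deltamethrin, with 4 control libraries above every deltamethrin library and 13 of 18 deltamethrin libraries below the control median. The log2 fold change was -0.49 ± 0.20 (SE), the unadjusted p 0.0163 and the adjusted p 0.813 by edgeR, and the permutation test gave an unadjusted p of 0.0533. Without control replicates 2 and 7 the log2 fold change was -0.26 (unadjusted p = 0.158). With all libraries but no scaling factors edgeR gave -0.39 (unadjusted p = 0.0304), and limma voom gave -0.34 (unadjusted p = 0.0836).

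The water and ion transport genes gave smaller differences. Aqp1 ran from 1.97 to 8.47 CPM in control (median 3.57) and from 1.37 to 4.92 CPM in deltamethrin (median 2.94), a log2 fold change of -0.25 ± 0.19 (SE). Slc4a5 ran from 1.72 to 8.56 CPM in control (median 3.04) and from 1.13 to 4.28 CPM in deltamethrin (median 2.80), a log2 fold change of -0.29 ± 0.20 (SE). The highest control library was replicate 7 for both, and 2 control libraries for Aqp1 and 1 for Slc4a5 lay above every deltamethrin library. Clic6 had a median of 10.6 CPM in control and 9.54 in deltamethrin (log2 fold change -0.10 ± 0.15), and the junction gene Cldn2 a median of 1.95 and 2.03 CPM (-0.26 ± 0.21). For Cldn2 the median was thus higher in deltamethrin although the mean was lower, 1.88 against 2.28 CPM. Unadjusted p-values for these 4 genes ran from 0.151 (Slc4a5) to 0.516 (Clic6). Without control replicates 2 and 7, Aqp1 was at -0.06, Slc4a5 at -0.05, Cldn2 at -0.10 and Clic6 at 0.06 on the log2 scale.

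The receptors Kl and Prlr, the enzyme Enpp2 and the transcription factor Otx2 lay closest to no difference. Kl had a median of 11.9 CPM in control and 13.4 CPM in deltamethrin, and its log2 fold change was -0.07 ± 0.18 (SE). Prlr had a median of 4.73 CPM in control and 5.97 CPM in deltamethrin, with 14 of 18 deltamethrin libraries at or above the control median, and its log2 fold change was 0.06 ± 0.23 (SE). Enpp2 had 222 and 211 CPM (-0.10 ± 0.13), and Otx2 2.67 and 2.74 CPM (-0.04 ± 0.12). The 95% intervals of the log2 fold change were -0.45 to 0.30 for Kl, -0.40 to 0.52 for Prlr, -0.35 to 0.16 for Enpp2 and -0.29 to 0.21 for Otx2. Prlr was the only marker with a positive fold change when all 31 libraries were used, and without control replicates 2 and 7 it stood at 0.39 (unadjusted p = 0.0508; 0.45 and 0.0138 without deltamethrin replicate 8 as well, adjusted p = 0.485 by edgeR), with Kl at 0.16, Enpp2 at 0.05 and Otx2 at 0.04. Without scaling factors Kl was at 0.01 and Otx2 at 0.02, so the sign of either gene depended on the scaling.

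**Figure D1:**
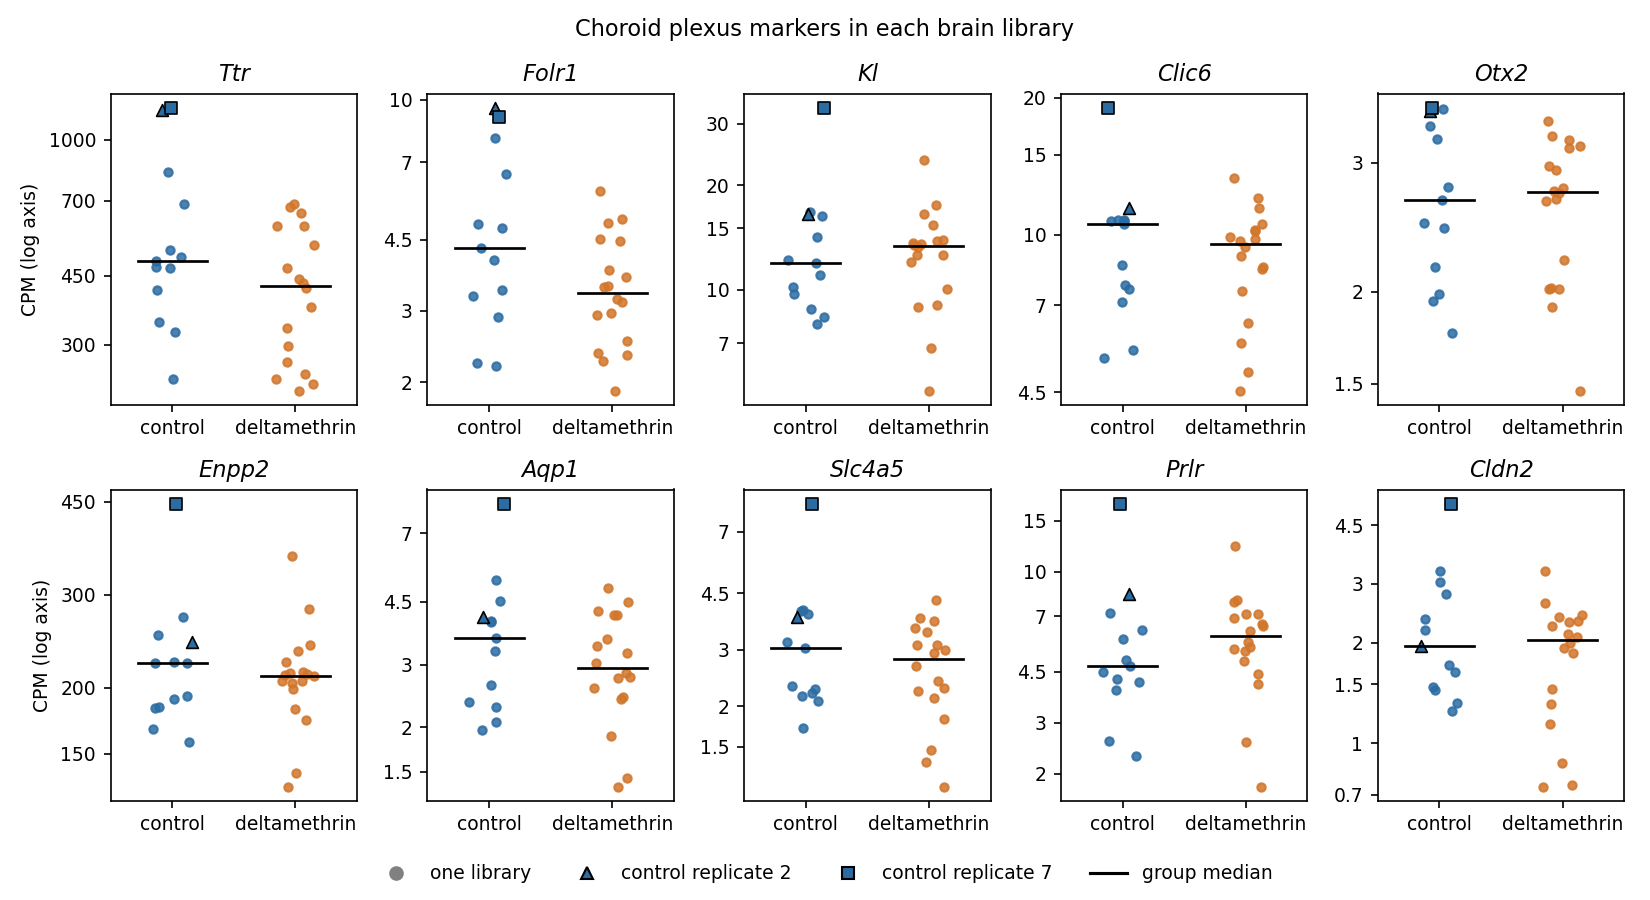
CPM of each marker (vertical log axis) in the 13 control and 18 deltamethrin libraries, 1 point per library, with the group median as a line and control replicates 2 and 7 as a triangle and a square. Control replicate 7 is the highest library for 9 of the 10 genes, and the groups overlap in every panel.

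The levels of the markers spread together over the libraries. After TMM scaling control replicate 7 was the highest library for 9 of the 10 genes, and for the remaining gene, Folr1, control replicate 2 was highest. Deltamethrin replicate 8 was lowest for 7 genes and deltamethrin replicate 13 for the other 3. Control replicate 12 lay among the 5 lowest libraries for 9 of the 10 genes, so low libraries were present in both groups. Control replicates 7 and 9 and deltamethrin replicate 16 lay above the median of all libraries for all 10 genes.

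The size of the spread differed by gene. The highest library exceeded the lowest by 9.49-fold for Prlr, 7.60-fold for Slc4a5, 7.04-fold for Cldn2, 6.52-fold for Kl, 6.20-fold for Aqp1, 5.28-fold for Ttr, 5.02-fold for Folr1, 4.19-fold for Clic6, 3.43-fold for Enpp2 and 2.43-fold for Otx2. The biological coefficient of variation fitted by edgeR was 42.1% for Prlr and 39.7% for Ttr, against a common value of 20.2% over all genes and 20.7% for Otx2. Among genes of like abundance (mean log2 CPM within 0.5), the SD of log2 CPM was larger for Prlr than for 98.3% of genes, for Kl than for 98.1% and for Ttr than for 97.2%. For Otx2 that share was 52.8%, so its spread was that of an ordinary gene. The SD of log2 CPM was 0.687 in control and 0.561 in deltamethrin for Ttr, and 0.705 and 0.447 for Folr1. The difference in spread between groups was not tested.

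All 45 pairs of markers had a positive Pearson r of log2 CPM over the 31 libraries, from 0.477 (Otx2 and Enpp2) to 0.934 (Kl and Enpp2), with a median of 0.748. The pairs were positive in each group as well, with r from 0.526 to 0.973 in control and from 0.324 to 0.940 in deltamethrin. Next below Kl and Enpp2 came Ttr and Folr1 (r = 0.926), Kl and Clic6 (r = 0.918) and Enpp2 and Prlr (r = 0.917), while Ttr with Prlr (r = 0.487) and Ttr with Enpp2 (r = 0.545) were among the loosest. Slc4a5, Clic6 and Kl followed the mean of the other 9 markers most closely (r = 0.935, 0.933 and 0.932), and Otx2 least (0.665). For every mean of markers related to other genes, here and below, log2 CPM of each marker was first centred and divided by its SD over the libraries.

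**Figure D2:**
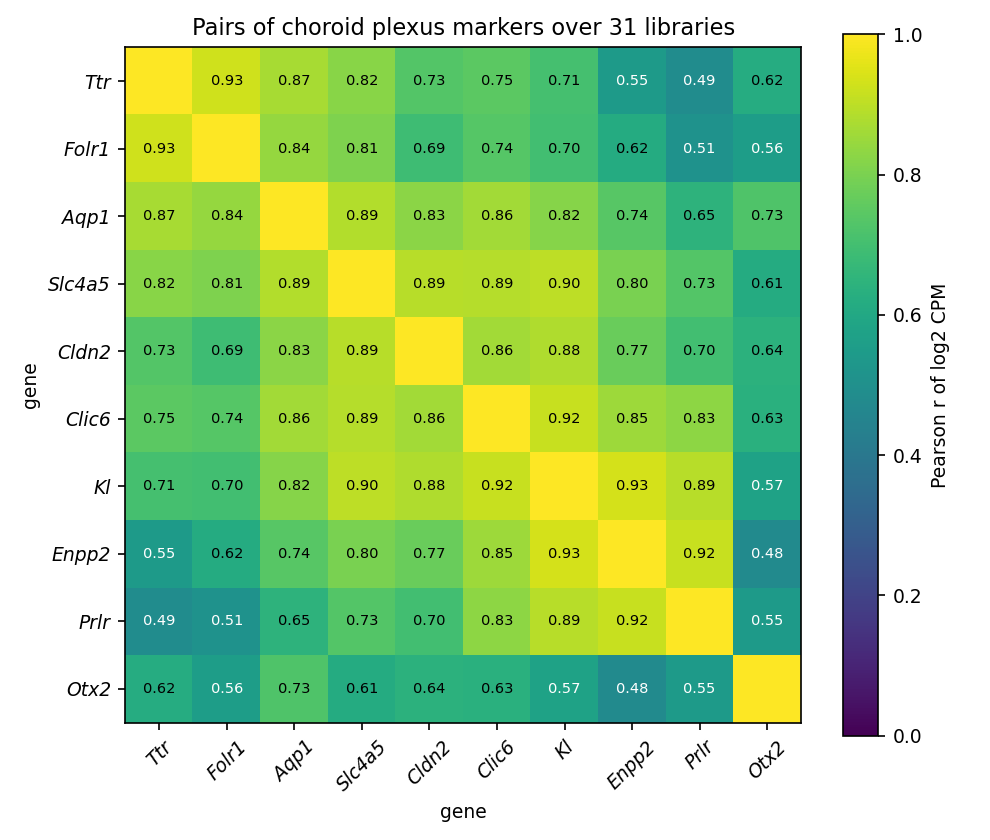
Pearson r of log2 CPM for each pair of markers over the 31 libraries, on a colour scale from 0 to 1. Ttr and Folr1 form a tight pair in the upper left and Kl, Enpp2 and Prlr a tight set toward the lower right, with low values where Ttr and Folr1 meet Enpp2 and Prlr and along Otx2 in the last row.

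Against Ttr, the most abundant of them, each of the other 9 markers had a positive r. For Folr1, Kl, Clic6, Aqp1 and Slc4a5 the permutation p of Pearson r was 1e-05, the smallest that 100000 resamples give. It was 2e-05 for Cldn2, 0.00015 for Otx2, 0.00126 for Enpp2 and 0.00539 for Prlr, and each adjusted p was 0.00539 or less over the 9 relations. Folr1 had r = 0.926 and rho = 0.928 (permutation p = 1e-05), Aqp1 r = 0.868 and rho = 0.877 (permutation p = 1e-05), and Slc4a5 r = 0.820 and rho = 0.804 (permutation p = 1e-05). Spearman's rho was 0.769 for Clic6 (permutation p = 1e-05), 0.718 for Kl (permutation p = 2e-05), 0.696 for Cldn2 (permutation p = 6e-05), 0.600 for Otx2 (permutation p = 0.00053) and 0.509 for Enpp2 (permutation p = 0.0037). Prlr had a rho of 0.323 with a permutation p of 0.0775, so its relation to Ttr did not hold by rank.

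The libraries farthest from the median Ttr level were control replicates 7 and 2. Without them r with Ttr was 0.889 for Folr1, 0.871 for Aqp1, 0.788 for Slc4a5, 0.744 for Cldn2, 0.694 for Clic6, 0.623 for Kl and 0.545 for Otx2. It was 0.393 for Enpp2 (permutation p = 0.0341) and 0.303 for Prlr (permutation p = 0.110), so the relation of Prlr to Ttr rested on those 2 libraries. Within control Enpp2 and Prlr had r = 0.753 and 0.754 with Ttr, and within deltamethrin 0.324 (permutation p = 0.194) and 0.330 (permutation p = 0.186). That difference between the groups was not tested.

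The slope on Ttr also divided the markers. For a gene that doubled whenever Ttr doubled, the slope of log2 CPM on log2 CPM of Ttr would be 1. It was 0.87 ± 0.07 (SE, n = 31) for Folr1, 0.75 ± 0.08 for Aqp1, 0.73 ± 0.09 for Slc4a5 and 0.70 ± 0.12 for Cldn2. For Kl it was 0.58 ± 0.11, for Clic6 0.52 ± 0.09, for Prlr 0.50 ± 0.17, for Otx2 0.32 ± 0.08 and for Enpp2 0.30 ± 0.08. A straight line through the CPM values met zero Ttr at 8.53% of the mean level for Folr1, but at 68.1% for Enpp2 and 72.6% for Otx2. That line was extended below the lowest Ttr level, 229 CPM, and a lower r with Ttr also flattens it. The percentages therefore do not measure expression outside the choroid plexus. With log2 Ttr CPM as a covariate in the edgeR fit, the log2 fold change of Folr1 was -0.09, those of the other 8 markers were positive, from 0.05 (Cldn2) to 0.37 (Prlr), and the smallest unadjusted p was 0.0885 (Prlr). Ttr was itself lower in deltamethrin and each slope on it was positive. A move of the fold changes upward is thus built into this fit and is not a separate result.

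**Figure D3:**
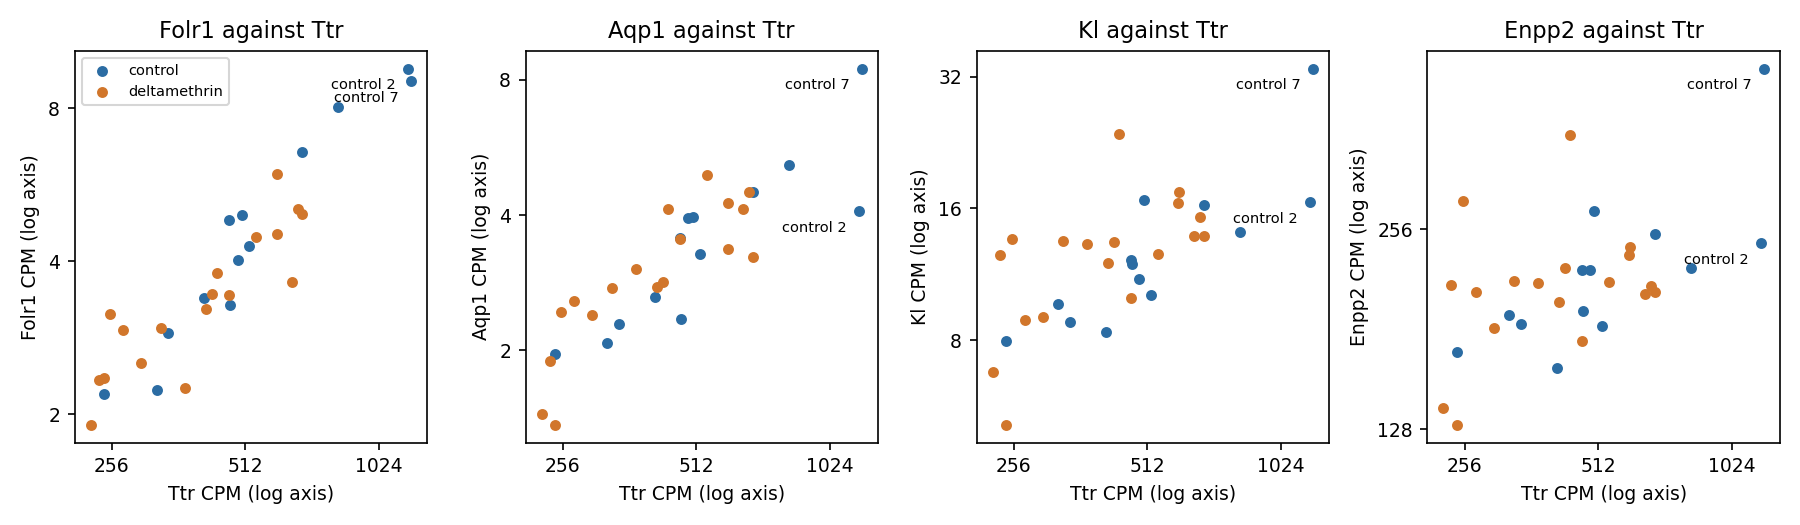
CPM of Folr1, Aqp1, Kl and Enpp2 against CPM of Ttr, both on log axes, with 1 point per library coloured by group. Folr1 and Aqp1 rise steeply with Ttr (r = 0.926 and 0.868) while Enpp2 is flatter and more scattered (r = 0.545), and control replicates 2 and 7 lie at the right edge.

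The ratio of Ttr to Enpp2, chosen after its values were seen, is a within-library measure of that division. Its log2 value ran from -0.15 to 2.29 over the libraries, and averaged 1.28 ± 0.47 (SD, n = 13) among control libraries against 0.95 ± 0.55 (SD, n = 18) among deltamethrin libraries. The difference of -0.32 did not pass a two-sided permutation test (p = 0.0957). The ratio of Ttr to Folr1, 2 genes of the tight pair, differed by 0.02 (permutation p = 0.811), and that of Kl to Enpp2 by 0.03 (permutation p = 0.722).

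Markers also differed in how they moved with the mitochondrial ribosomal RNA share, a property of library composition. Ttr had r = 0.514 with the log2 share (permutation p = 0.00331, adjusted 0.0331 over the 10 genes; rho = 0.427, permutation p = 0.0181, adjusted 0.181) and Folr1 r = 0.473 (permutation p = 0.00749, adjusted 0.03745; rho = 0.370, permutation p = 0.0412, adjusted 0.206). Neither relation passed 0.05 without control replicates 2 and 7, whose shares lay farthest from the median of all 31 (r = 0.267, permutation p = 0.161 for Ttr, and r = 0.210, permutation p = 0.273 for Folr1). Without deltamethrin replicate 8 as well, Ttr had r = 0.431 (permutation p = 0.0221, n = 28) and Folr1 r = 0.333 (permutation p = 0.0840), so whether Ttr passed depended on which libraries were left out. For the other 8 genes r ran from -0.041 (Enpp2) to 0.236 (Aqp1). Within control every marker had a positive r with the share, from 0.310 (Otx2) to 0.781 (Ttr). Within deltamethrin 8 of 10 were negative, from -0.056 (Aqp1) to -0.558 (Enpp2, permutation p = 0.01525), and Ttr and Folr1 were at 0.220 and 0.139. These within-group signs rested on the same libraries. Without deltamethrin replicate 8, 5 of 10 were negative in deltamethrin and Enpp2 was at -0.419 (permutation p = 0.0955, n = 17). Without control replicates 2 and 7, 6 of 10 were positive in control and Ttr was at 0.476 (permutation p = 0.138, n = 11). The share itself did not differ between groups by a permutation test (p = 0.699 for its log2 value). With the log2 share as a covariate the log2 fold change was -0.31 for Ttr (unadjusted p = 0.0967) and -0.39 for Folr1 (unadjusted p = 0.0286), with adjusted p-values of 0.588 and 0.519 by edgeR.

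Ttr and Folr1, the markers with the shortest annotated exon length (1186 and 2297 bases), had the most negative fold changes. Next came Slc4a5 (-0.29), which at 5804 bases is longer than Aqp1 (2627 bases, -0.25). Across the 10 genes the Spearman rho of annotated exon length with the log2 fold change was 0.745, and with the r to the mitochondrial share it was -0.709. Across 33 further choroid plexus genes these values were 0.517 and -0.547, and across the 19454 genes tested that have a length they were 0.294 and -0.399. Without control replicates 2 and 7 the rho with the fold change was 0.867 for the markers, 0.384 for the 33 genes and 0.195 for all genes. These are descriptions across genes, which are not independent replicates, and the part of length or library composition in the group difference was not tested.

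**Figure D4:**
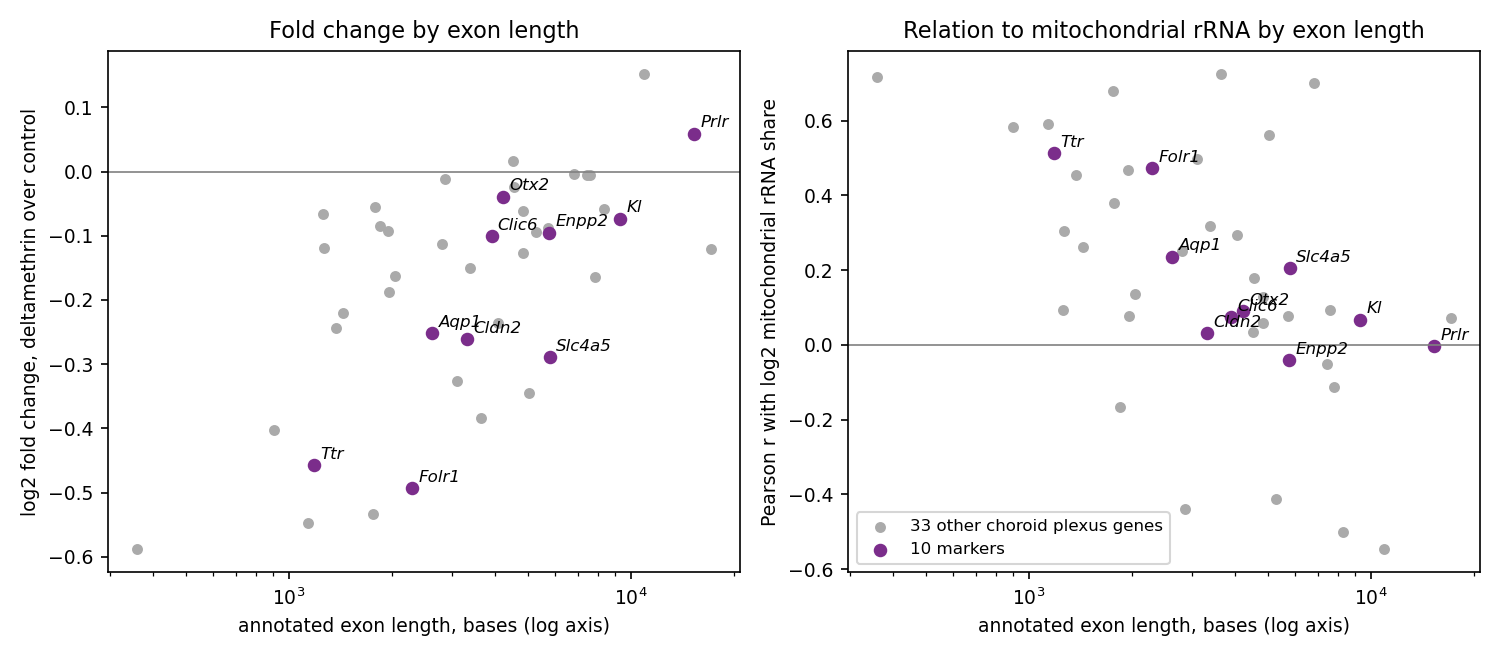
Annotated exon length (log axis) of the 10 markers and 33 other choroid plexus genes against the log2 fold change of deltamethrin over control (left) and against Pearson r with the log2 mitochondrial rRNA share over 31 libraries (right), 1 point per gene. Ttr and Folr1 are the shortest markers and the lowest on the left, and the markers' rho is 0.745 on the left and -0.709 on the right.

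Of 33 other choroid plexus genes, all 33 passed the count filter, 31 had a negative fold change, 0 had an adjusted p-value under 0.05 and 4 had an unadjusted p-value under 0.05, all lower. Their median log2 fold change was -0.12, and -0.01 without control replicates 2 and 7. The 4 genes were Kcne2, a potassium channel subunit (-0.53 ± 0.24), Wfdc2, a secreted protein (-0.55 ± 0.26), Cox8b, a subunit of cytochrome oxidase (-0.59 ± 0.27), and Msx1, a homeodomain factor (-0.33 ± 0.15), each with an adjusted p of 0.813 by edgeR. By role, 7 of 9 ion and solute transport genes, 9 of 9 genes of secreted proteins and enzymes, 2 of 2 transcription factors and 6 of 6 keratin and junction genes were negative, as were 7 of 7 others. Among all genes tested, 49.5% had a negative fold change and 2.37% were lower at an unadjusted p-value under 0.05. The 33 genes had a median r of 0.730 over the libraries with the mean of the markers' centred and SD-scaled log2 CPM. Their negative values are therefore not separate observations. Over the libraries 1500015O10Rik (r = 0.958) and Wfdc2 (r = 0.895) followed Ttr most closely. Slc12a2, a sodium, potassium and chloride cotransporter that neurons and glia also express, followed it least (r = -0.302), with Slc29a4 next (r = 0.029).

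**Figure D5:**
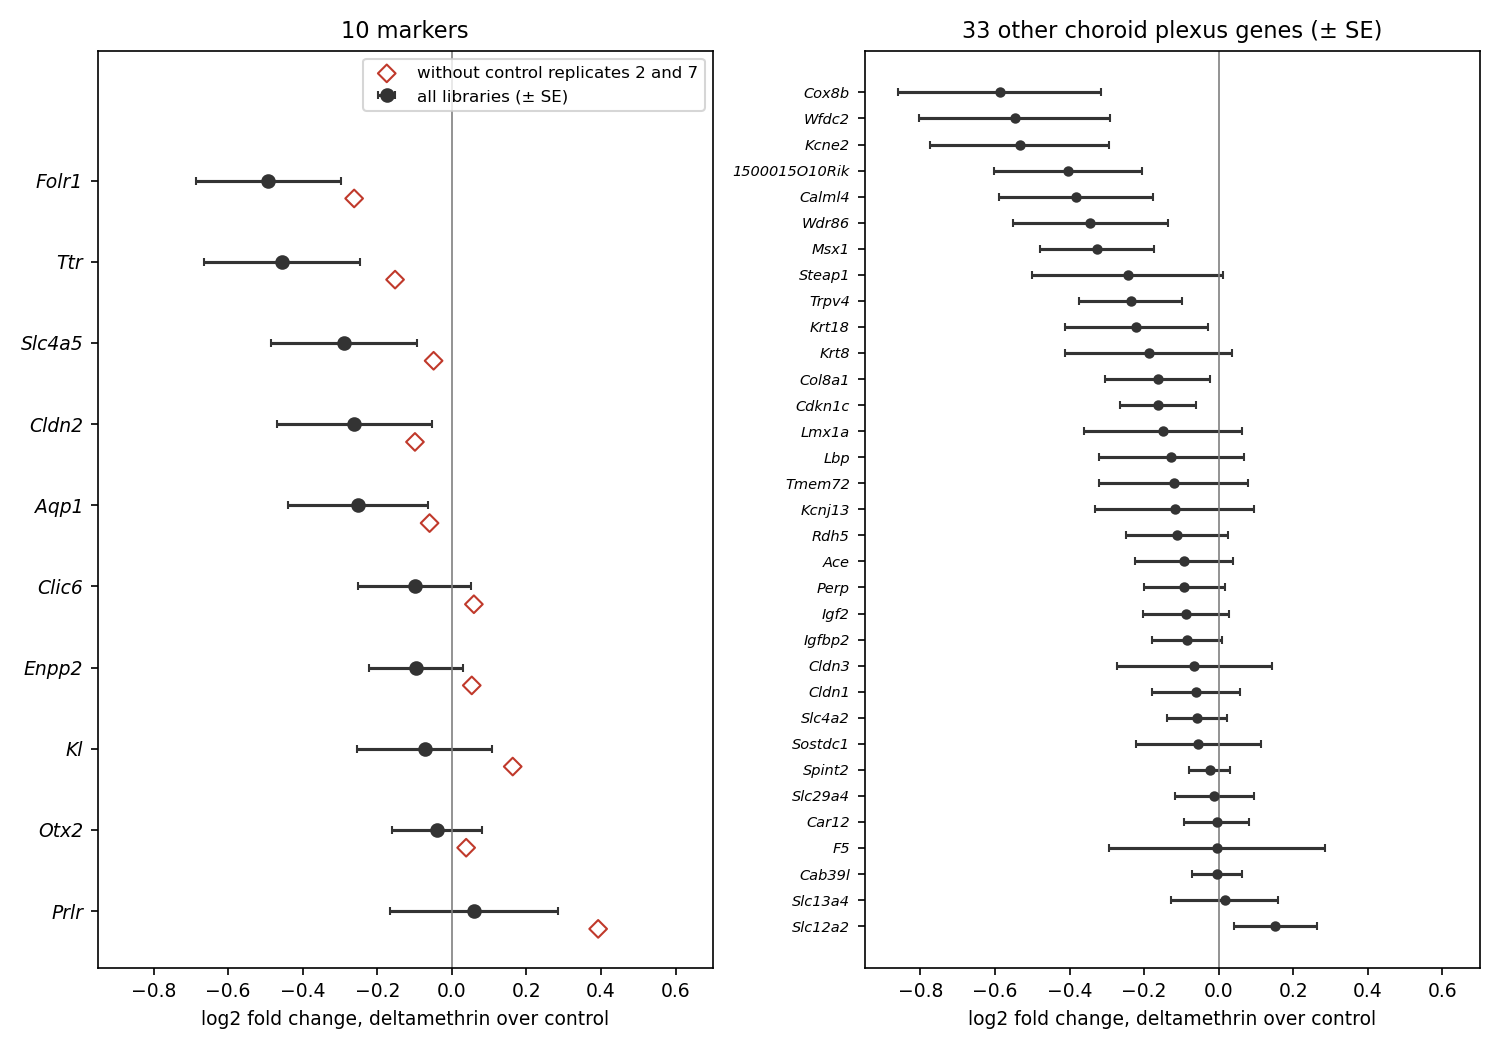
Log2 fold change of deltamethrin over control with its SE for the 10 markers (left) and 33 other choroid plexus genes (right), with open diamonds for the markers' values without control replicates 2 and 7. All diamonds lie to the right of the filled points, and 9 of 10 filled points on the left are below 0.

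The genes whose log2 CPM was most like the mean of the 10 markers, over 31 libraries and outside the markers, were Tmem72 (r = 0.919), Drc7 (0.898), Col8a2 (0.889), Igf2 (0.884), Krt18 (0.879), Lbp (0.861), Kcnj13 (0.857), Slc13a4 (0.857), Trpv4 (0.846) and Sostdc1 (0.839). Among these 10 genes 8 were on the list of other choroid plexus genes, as were 14 of the first 20 and 20 of the first 30. That list holds 33 of the 19529 genes tested. It was chosen with earlier results of these data known, so the counts are a description only. The exceptions in the first 10 were Drc7, a component of motile cilia, and Col8a2, a short-chain collagen. Their fold changes were -0.22 ± 0.15 for Drc7 and -0.09 ± 0.17 for Col8a2 on the log2 scale.

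Markers of other cell types had lower median r with the markers' mean than the 33 other choroid plexus genes, but the ranges overlapped. For those 33 genes r ran from 0.178 to 0.919 with a median of 0.730. The highest median of another list was 0.441, for ependymal cells. Of all genes tested, 49.5% had a negative fold change, and 2.37% were lower and 2% higher at an unadjusted p under 0.05 by edgeR. Genes of a list can vary together between libraries, so the sign counts here and in the next paragraph are descriptions, not separate observations. The 7 ependymal markers, from the ciliated cells that line the ventricles, had r of 0.181 to 0.557 with the markers' mean, and 7 of 7 had a negative fold change, with Cfap126 at an unadjusted p under 0.05 (-0.36 ± 0.15). Their summed level was 11.8 to 27.6 CPM in control and 9.83 to 19.6 CPM in deltamethrin, with Foxj1 the most abundant (6.75 CPM), and their part in the result was not tested. The 7 oligodendrocyte markers had r of -0.141 to 0.127 (5 of 7 negative fold changes, 4113 to 6124 CPM in control, 4334 to 6867 CPM in deltamethrin, Mbp most abundant at 2724 CPM). The 5 blood markers had r of 0.158 to 0.270 (5 of 5 negative, 492 to 1668 and 380 to 1241 CPM, Hbb-bs at 252 CPM). The 6 meningeal markers reached r = 0.553 for Ogn (5 of 6 positive, 2 of them, Dcn and Col3a1, at an unadjusted p under 0.05, 13.6 to 25.3 and 15.6 to 35.9 CPM, Dcn at 8.95 CPM).

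The lists that follow stand beside 49.5% of all genes tested with a negative fold change. At an unadjusted p under 0.05 by edgeR, 2.37% of all genes were lower and 2% higher. For endothelium r was -0.099 to 0.200 (4 of 7 positive, Cldn5 at an unadjusted p under 0.05, 145 to 210 and 153 to 216 CPM, Slc2a1 at 48.0 CPM). For striatum it was 0.173 to 0.300 (6 of 6 negative, Gpr6 at an unadjusted p under 0.05, 334 to 624 and 259 to 685 CPM, Ppp1r1b at 249 CPM), and for cerebellum -0.239 to -0.003 (5 of 5 positive, 51.0 to 343 and 62.8 to 464 CPM, Car8 at 123 CPM). Hypothalamic peptides gave -0.282 to 0.066 (5 of 5 positive, 2.03 to 12.8 and 3.21 to 17.8 CPM, Pmch at 3.52 CPM). Of 6 pineal and eye markers only Rpe65 passed the count filter (1.43 CPM, log2 fold change -0.47 ± 0.15, unadjusted p = 0.0042, adjusted p = 0.813 by edgeR, r = -0.169), and their sum was at most 3.13 CPM in any library. Of 5 pituitary markers 2 passed, Tshb was the most abundant (0.809 CPM), both had positive fold changes, and the sums were 0.719 to 3.70 CPM in control and 1.12 to 14.7 CPM in deltamethrin.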

How the data were processed

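Total RNA from mouse brain was sequenced in 13 control and 18 deltamethrin samples, grouped by the agent label. The authors deposited unnormalized whole-number counts for each Ensembl gene. Trimmomatic, HISAT2 and SAMtools with build GRCm38 are named in the submitters' processing notes, and the counting tool, annotation and strand setting are not given in the sources used here. Columns were matched to samples by title, and 0 sample columns were left unused. Genes were kept by filterByExpr of edgeR (version 4.0.16, minimum count 10, minimum total 15) and scaled by TMM factors. Groups were compared across all genes with edgeR's quasi-likelihood test, robust and without covariates, and p-values were adjusted by Benjamini-Hochberg over all genes tested. Each SE was obtained from the fold change and the root of its F statistic, and the 95% interval uses the residual degrees of freedom of the fit. Log2 CPM has a prior count of 2. Permutation tests are two-sided with 100000 resamples. The pipeline was tested on simulated data. Genes named were all markers, other choroid plexus genes with an unadjusted p under 0.05 or the 2 highest and 2 lowest r with Ttr, the 10 genes most like the markers' mean, and the most abundant gene of each other marker list. Cfap126, Col3a1, Cldn5, Gpr6 and Ogn, from those lists, fall outside this rule and were picked once their values had been seen. The markers and lists were chosen with earlier results of these data known. Alternatives were RLE, upper quartile and no factors, other count filters, DESeq2 (version 1.42.0), limma voom (version 3.58.1), robust=FALSE, covariates, an adjusted p threshold of 0.1 and leaving out each library. Leaving out control replicates 2 and 7 together, deltamethrin replicate 8, or all 3, for the relations with the mitochondrial share and for the group comparison, was chosen after seeing the data.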

Additional observations from a re-analysis of the deposited data

How the results depend on the processing

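After adjustment 0 markers passed 0.05 in every setting with adjusted p-values, including each of 31 fits that left out 1 library. All genes were counted in each of these settings except the fit with log2 Ttr CPM as a covariate, and 0 genes passed 0.05. Likewise 0 markers and 0 genes passed a looser threshold of 0.1 in the edgeR fit. The smallest adjusted p-value of any gene over the settings in which all genes were counted was 0.0521, without control replicate 5, and it was 0.0531 with DESeq2. The number of markers at an unadjusted p-value under 0.05 was 2. It was 1, Folr1, with no scaling factors, with no count filter and with the mitochondrial share as a covariate, and 1, Ttr, with limma voom. It was 0 without control replicates 2 and 7 together, and 1, Prlr, which was higher in deltamethrin, without these and deltamethrin replicate 8, both alternatives chosen after seeing the data. Leaving out 1 library gave 0 to 2: 2 in 21 fits, 1 in 9 (control replicates 2, 3 and 11 and deltamethrin replicates 2, 3, 4, 8, 11 and 13) and 0 without control replicate 7.

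Of 99 log2 fold changes under 10 other settings 90 kept their sign. The 9 that did not were Kl (0.014) and Otx2 (0.018) without scaling factors, and, with log2 Ttr CPM as a covariate, Kl (0.228), Clic6 (0.137), Otx2 (0.087), Enpp2 (0.061), Aqp1 (0.082), Slc4a5 (0.046) and Cldn2 (0.045). Adjusting for Ttr, a marker that was itself lower in deltamethrin, moves the other markers upward, so these reversals are not separate observations. Without control replicates 2 and 7 the reversed values were Kl 0.163, Clic6 0.059, Otx2 0.038 and Enpp2 0.053, and without deltamethrin replicate 8 as well they were 0.213, 0.099, 0.074 and 0.085. When 1 library was left out, Ttr ran from -0.53 to -0.33 and Folr1 from -0.56 to -0.39, both nearest 0 without control replicate 7. Aqp1 ran from -0.31 to -0.09, Slc4a5 from -0.35 to -0.09 and Cldn2 from -0.32 to -0.10. Kl (-0.15 to 0.11), Clic6 (-0.15 to 0.020) and Enpp2 (-0.15 to 0.025) turned positive without control replicate 7, Otx2 (-0.080 to 0.0055) without control replicate 9, and Prlr (-0.03 to 0.31) turned negative without deltamethrin replicate 1 (-0.031), control replicate 10 (-0.0066) or control replicate 12 (-0.013). The median of the 33 other choroid plexus genes ran from -0.18 to -0.03. The relation of Enpp2 to Ttr lost its permutation p under 0.05 within deltamethrin (r = 0.324), as did that of Prlr (r = 0.330, and 0.303 without the 2 libraries farthest from the median). The causes were not tested. Low markers such as Cldn2, with 21 to 130 counts per library, are limited by counting error as well. No paired analysis was possible because replicate numbers were assigned by sample order and link no library of one group to the other.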
